A study of Mus musculus with 8 samples.

Results

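Müller glia are the radial support cells of the retina, and 10 of their genes were followed here in mice that lack Nxnl1, the photoreceptor gene of rod-derived cone viability factor. The genes were Prss56, Glul, Slc1a3, Aqp4, Kcnj10, Apoe, Car14, Dkk3, Sox9 and Clu. They were taken by gene symbol through the annotation of the array platform, and every probe set of each was kept whatever its value. This gave 24 probe sets of 45037 tested, and 10 genes of 18193. No probe set that carries several symbols held one of the 10.

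Total RNA of whole retina was hybridised to Affymetrix 3′ expression arrays, 1 array per sample. Of the 8 arrays, 3 were labelled ko/ko (homozygous Nxnl1 null), 2 ko/wt (heterozygous Nxnl1 null) and 3 wt/wt (wild type). All mice were 40 days old and of 1 strain, given as BALB/c AJ, and the pigment epithelium had been dissected away, per the labels. The labels do not say how the null allele was made, or whether each array stands for its own animal. The p-values therefore measure only how far these samples spread, and that spread may be technical.

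Values are log2 expression, and a difference of 1 is a doubling. Nxnl1 went against the label on a pair of arrays. Its brighter probe set (1425696_at) read 6.13, 8.76 and 6.13 on the arrays labelled ko/ko 1, 2 and 3, and 8.65 and 6.75 on those labelled ko/wt 1 and 2, against 9.22, 8.87 and 8.65 on wt/wt 1, 2 and 3. Nxnl1 was thus as high as in wild type on the array labelled ko/ko 2 and low on the array labelled ko/wt 2, so each direction below is that of the labels. The differences of the brightest probe sets and the medians of the gene lists that move most are also given without these 2 arrays, where ko/wt is 1 array that is assumed to vary like the other groups. The actin 5′ minus 3′ difference, taken between control probe sets at either end of the transcript, falls when RNA is degraded or copied incompletely, and it ran from -1.81 on wt/wt 1 and -1.74 on ko/ko 1 to -0.69 on ko/ko 2. Rod markers averaged 13.21 to 13.41 over the arrays, and pigment epithelium markers averaged 7.39 to 8.11, with Ttr at 11.99 or above on every array although the tissue is labelled as free of that layer.

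Müller cells span the retina and take up the glutamate that neurons release, turn it into glutamine, buffer potassium, move water and acid, and supply lipid. In bulk retina fewer Müller cells and less RNA per cell cannot be told apart. Prss56 encodes a secreted trypsin-like serine protease. It is made by Müller glia in mice, and its loss shortens the eye in mice and in people.

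The promoters of 3 of the genes are shown because the Prss56 probe set differed most between groups and because the brightest probe sets of Kcnj10 and Slc1a3 had the highest correlation over the arrays of any 2 of the genes. Sequences are from RefSeq (GRCm38.p6), 250 bases before to 50 after the annotated start, on the strand of the gene. RefSeq entries were matched for 6 of the 10 genes, with 8 promoters. Capitals mark CCAAT boxes (CCAAT or ATTGG) and TATA boxes (TATAAA or TTTATA).
Prss56, chr1:87183064-87183363, plus strand: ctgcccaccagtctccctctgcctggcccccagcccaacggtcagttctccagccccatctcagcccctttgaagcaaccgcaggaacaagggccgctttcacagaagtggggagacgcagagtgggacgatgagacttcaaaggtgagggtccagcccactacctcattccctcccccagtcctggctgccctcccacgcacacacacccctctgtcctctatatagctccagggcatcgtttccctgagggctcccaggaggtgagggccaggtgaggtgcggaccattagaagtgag
Kcnj10, chr1:172340960-172341259, plus strand: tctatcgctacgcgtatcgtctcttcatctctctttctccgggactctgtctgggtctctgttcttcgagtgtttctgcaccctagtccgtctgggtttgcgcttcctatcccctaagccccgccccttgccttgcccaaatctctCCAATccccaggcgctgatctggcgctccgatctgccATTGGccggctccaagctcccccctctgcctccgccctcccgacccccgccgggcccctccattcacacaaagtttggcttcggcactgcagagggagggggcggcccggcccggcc
Slc1a3, chr15:8710758-8711057, minus strand: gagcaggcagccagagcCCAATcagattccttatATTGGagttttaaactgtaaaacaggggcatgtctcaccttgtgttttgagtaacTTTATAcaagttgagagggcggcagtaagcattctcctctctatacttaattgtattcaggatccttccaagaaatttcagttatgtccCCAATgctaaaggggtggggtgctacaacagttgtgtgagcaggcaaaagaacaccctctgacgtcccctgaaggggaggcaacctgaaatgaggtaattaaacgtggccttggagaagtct
The Kcnj10 window held 2 CCAAT boxes and the Slc1a3 window 3 CCAAT boxes and 1 TATA box, counting both strands. Among all 32851 promoter windows of this length, 37.4% held a CCAAT box and 13.6% a TATA box. Of the 8 windows of the member genes, 3 held a CCAAT box and 2 a TATA box. The core letters bound by Sox proteins (AACAAT or ATTGTT) were in 10.7% of all windows and in 0 of the 8. A match of this kind is a description of the letters, and the window of Prss56 held none of the 3 motifs in these exact letters. Near matches were not counted, such as the letters tatata in the Prss56 window, so a TATA-like stretch there is not excluded.

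Prss56 was lowest on the arrays labelled ko/wt, and its levels on those labelled ko/ko and wt/wt overlapped. Its single probe set (1429647_at, chromosome 1) read 6.70, 6.38 and 6.70 on ko/ko 1, 2 and 3 and 5.61 and 5.73 on the arrays labelled ko/wt 1 and 2, against 6.96, 6.72 and 6.44 on wt/wt 1, 2 and 3. Both ko/wt arrays were below each of the other 6. The group means were 6.59 ± 0.18 in ko/ko (SD, n = 3), 5.67 ± 0.090 in ko/wt (n = 2) and 6.71 ± 0.26 in wt/wt (n = 3).

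The ko/wt mean of Prss56 was lower than the wt/wt mean by a log2 difference of -1.04 (SE 0.17), and the ko/ko mean was higher than the ko/wt mean by 0.92 (SE 0.17). Prss56 was already known to lead the ko/wt comparison in earlier results of these arrays, so both are descriptions without a test. Between ko/ko and wt/wt the difference was -0.11 (SE 0.15, unadjusted p = 0.468, limma), less than the spread between arrays. Prss56 was low both on ko/wt 1, where Nxnl1 read 8.65, and on ko/wt 2, where it read 6.75. The relation between Prss56 and the measured Nxnl1 level over the arrays was not tested. Without the 2 arrays against their label, ko/wt 1 is the only ko/wt array left. The differences were then -1.10 for ko/wt minus wt/wt, 1.09 for ko/ko minus ko/wt and -0.0097 for ko/ko minus wt/wt.

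**Figure D1:**
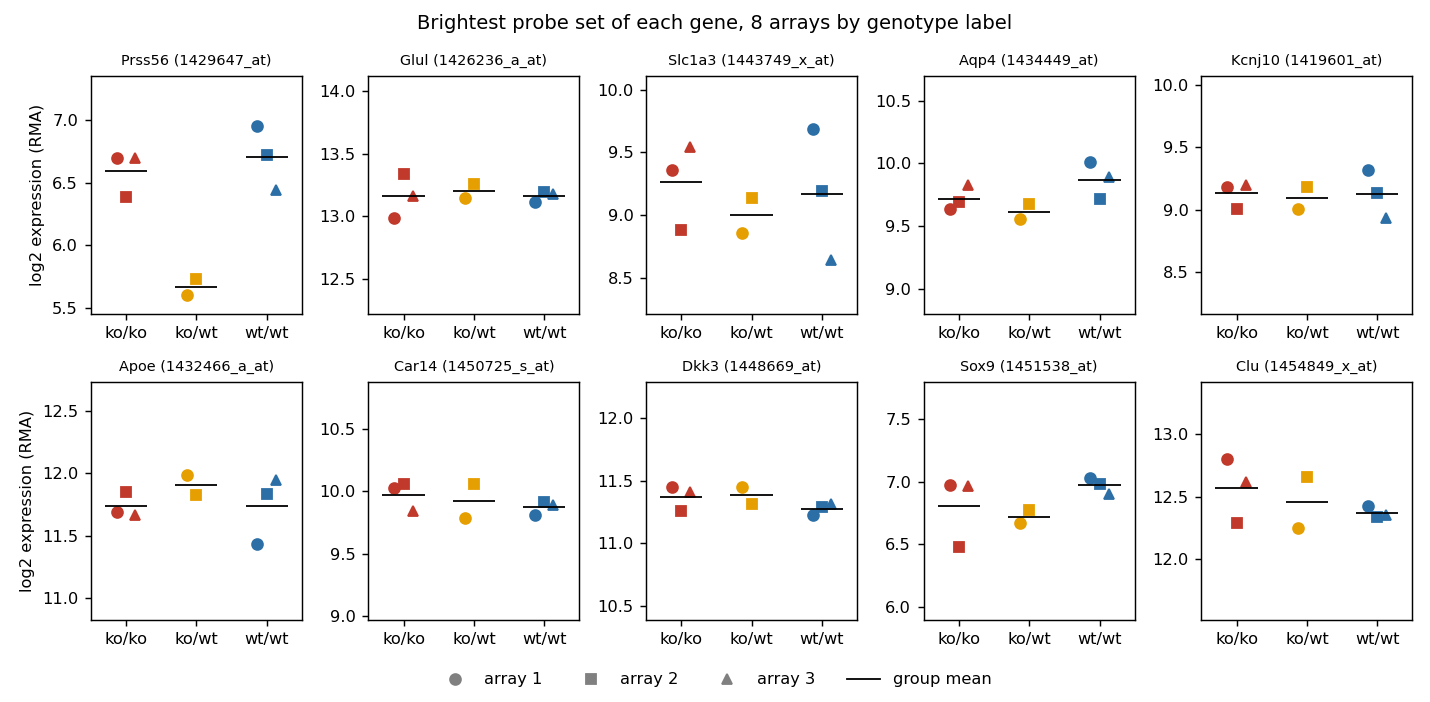
Log2 expression (vertical axes, all of the same length) of the brightest probe set of each of the 10 genes on the 8 arrays, by genotype label (horizontal axes). Symbols stand for the array number, which orders nothing, and lines for group means; only in the Prss56 panel do the ko/wt arrays, at 5.61 and 5.73, lie far below the rest.

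Pigment epithelium markers moved with Prss56 in the ko/wt arrays. The mean of 11 markers of that layer was 7.94, 7.80 and 7.51 on ko/ko 1, 2 and 3 and 7.39 and 7.43 on ko/wt 1 and 2, against 8.11, 8.06 and 7.53 on wt/wt 1, 2 and 3. Of the 11 markers 10 had a lower mean in ko/wt than in wt/wt (median log2 difference -0.52), and 9 had a lower mean in ko/ko than in wt/wt (median -0.12). These medians were -0.68 in ko/wt and -0.14 in ko/ko without the 2 arrays against their label. On ko/ko 3 and wt/wt 3 the marker means of 7.51 and 7.53 were near those of the ko/wt arrays, while Prss56 read 6.70 and 6.44 there. The part of these markers in the Prss56 difference was not tested.

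**Figure D2:**
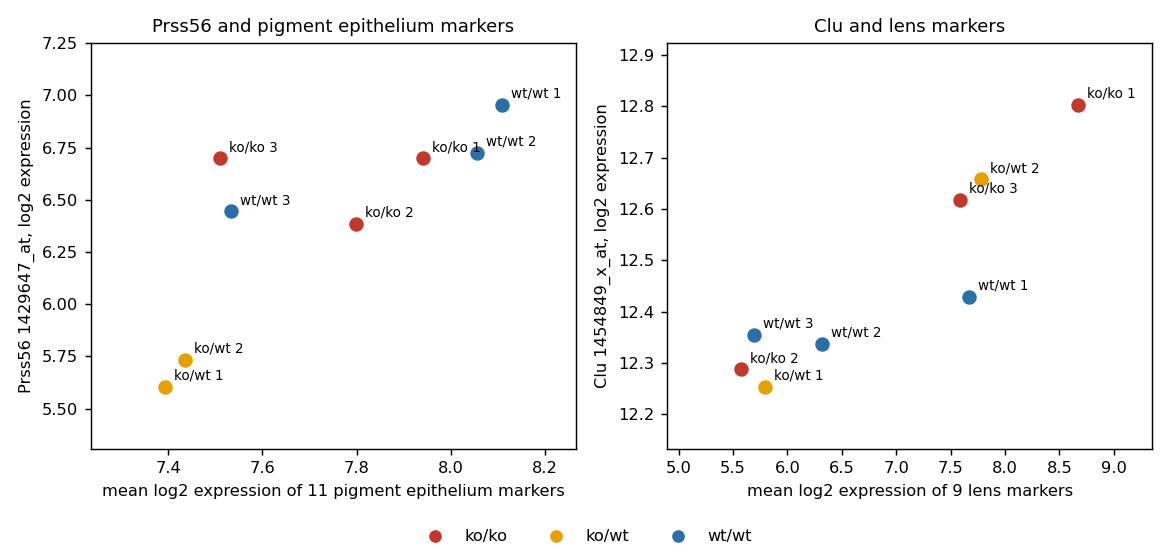
Left, Prss56 (1429647_at) against the mean of 11 pigment epithelium markers, both in log2 expression, and right, Clu (1454849_x_at) against the mean of 9 lens markers, with 1 point per array coloured by genotype label. Prss56 is at 6.70 and 6.44 on ko/ko 3 and wt/wt 3, above the ko/wt arrays at similar pigment epithelium levels, and Clu is highest on ko/ko 1, ko/wt 2 and ko/ko 3.

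Genes whose pattern over the 8 arrays was most like that of Prss56, among 10618 genes ranked by Pearson correlation, were Qars (0.95), Herc4 (0.94), Cep120 (0.94), Ift122 (0.94) and Iqgap2 (0.93). Their standard deviations over the arrays were 0.087 to 0.28. Iqgap2 read 7.23, 7.16 and 7.08 in ko/ko and 6.75 and 6.68 in ko/wt, against 7.52, 7.26 and 7.21 in wt/wt. Its ko/wt arrays were again the 2 lowest. These correlations are over the same 8 arrays and carry no test.

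Among genes studied with Prss56 for the size of the eye, such as Mfrp and Tmem98, 0 of 7 measured passed the adjusted threshold in ko/ko or ko/wt against wt/wt. Of these 7, 3 had a higher mean in ko/ko than in wt/wt (median log2 difference -0.010) and 3 a higher mean in ko/wt (median -0.029).

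For the glutamate genes Glul and Slc1a3, the genotypes overlapped in the brightest probe sets. Glul encodes glutamine synthetase, which in the retina is made by Müller cells. Its brighter probe set (1426236_a_at, chromosome 1) read 12.98, 13.34 and 13.17 in ko/ko and 13.14 and 13.26 in ko/wt, against 13.12, 13.19 and 13.18 in wt/wt. The 3 groups overlapped, and the highest and lowest arrays were both ko/ko. The differences from wt/wt were -0.00099 (SE 0.11) in ko/ko and 0.038 (SE 0.12) in ko/wt.

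Slc1a3 encodes GLAST, the main glutamate transporter of Müller cells. Its brightest probe set (1443749_x_at, chromosome 15) read 9.36, 8.88 and 9.55 in ko/ko and 8.86 and 9.14 in ko/wt, against 9.68, 9.19 and 8.64 in wt/wt. Both the highest and the lowest value were wild type. The differences from wt/wt were 0.091 (SE 0.27) in ko/ko and -0.18 (SE 0.30) in ko/wt, and the first was 0.28 without the 2 arrays against their label.

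Slc1a3 had 6 probe sets that did not move alike over the arrays. The correlation between pairs of them over the 8 arrays ran from -0.78 to 0.84. The probe set 1426341_at read 7.97, 8.41 and 8.52 in ko/ko and 8.73 and 8.71 in ko/wt, against 7.83, 8.25 and 9.16 in wt/wt. Its highest array, wt/wt 3, was the lowest of 1443749_x_at, and all its ko/ko arrays were below both ko/wt arrays. The probe sets 1439072_at and 1440491_at were below the median probe set level of the arrays.

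Of 14 measured genes of glutamate uptake and recycling, which include Glul and Slc1a3, 0 passed the adjusted threshold in either comparison with wt/wt. The mean was higher in ko/ko than in wt/wt for 10 of the 14 (median 0.091) and higher in ko/wt for 10 (median 0.025). Over the brightest probe sets of all genes, which is the like measure for the lists here, the medians were 0.024 in ko/ko and -0.0067 in ko/wt. Over all probe sets they were 0.0054 and 0.0018.

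The channels for potassium and water and the carbonic anhydrase of the Müller cell membrane differed from wild type by at most 0.26 in their brightest probe sets. Kcnj10 encodes Kir4.1, the inward rectifier through which Müller cells shunt potassium. Its probe set (1419601_at, chromosome 1) read 9.18, 9.01 and 9.20 in ko/ko and 9.01 and 9.18 in ko/wt, against 9.32, 9.14 and 8.93 in wt/wt. The wild-type arrays spanned the other 5, and the differences from wt/wt were 0.0019 (SE 0.12) in ko/ko and -0.036 (SE 0.14) in ko/wt.

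Aqp4 encodes the water channel that sits with Kir4.1 in Müller cell endfeet. Its brightest probe set (1434449_at, chromosome 18) read 9.64, 9.69 and 9.83 in ko/ko and 9.55 and 9.67 in ko/wt, against 10.01, 9.72 and 9.89 in wt/wt. The ko/wt arrays lay below all wild-type arrays, narrowly at the nearest pair, and the ko/ko arrays overlapped the wild type. The difference from wt/wt was -0.26 in ko/wt (SE 0.12, unadjusted p = 0.0643, limma) and -0.15 in ko/ko (SE 0.11, unadjusted p = 0.194).

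The other Aqp4 probe sets did not share this order. The probe set 1425382_a_at read 8.01, 9.37 and 9.24 in ko/ko and 9.31 and 9.77 in ko/wt, against 8.57, 9.26 and 9.51 in wt/wt. The probe set 1447745_at ran from 5.95 to 7.99, both in wild type. Their correlations with 1434449_at over the 8 arrays were -0.10 and 0.07, and the mean of the 3 probe sets was higher in ko/wt than in wt/wt by 0.029.

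Car14 encodes a carbonic anhydrase of the cell surface that serves acid buffering in Müller cells. Its probe set (1450725_s_at, chromosome 3) read 10.02, 10.06 and 9.84 in ko/ko and 9.79 and 10.05 in ko/wt, against 9.81, 9.92 and 9.89 in wt/wt. The groups overlapped, with differences from wt/wt of 0.10 (SE 0.11) in ko/ko and 0.049 (SE 0.12) in ko/wt.

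Of 14 measured genes of potassium and water channels and their anchoring complex, 0 passed the adjusted threshold in either comparison with wt/wt, with 6 above wt/wt in ko/ko (median -0.0078) and 8 in ko/wt (median 0.067). The non-member genes named from here on were picked after their values were seen, among those with the smallest unadjusted p of each list. Aqp1, a water channel of photoreceptors in the mouse retina, differed by 0.32 between ko/ko and wt/wt (SE 0.16, unadjusted p = 0.0812, limma). Dmd, whose short products anchor Kir4.1 and aquaporin-4, differed by -0.23 (SE 0.12, unadjusted p = 0.0879, limma). Dtna, the dystrophin partner dystrobrevin, differed by 0.28 between ko/wt and wt/wt (SE 0.15). For 14 measured genes of carbonic anhydrases and bicarbonate transport the count past the adjusted threshold was again 0, with medians of 0.070 in ko/ko and 0.0033 in ko/wt, and Car11 differed by 0.34 in ko/wt (SE 0.15).

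Among the lipoprotein genes, Clu was highest on the 3 arrays that read lowest in Nxnl1, of which 2 are labelled ko/ko and 1 ko/wt. Clu encodes clusterin, a secreted chaperone also known as apolipoprotein J. Its brightest probe set (1454849_x_at, chromosome 14) read 12.80, 12.29 and 12.62 on ko/ko 1, 2 and 3 and 12.25 and 12.66 on ko/wt 1 and 2, against 12.43, 12.34 and 12.35 in wt/wt. The 3 highest arrays were ko/ko 1, ko/wt 2 and ko/ko 3, and the others overlapped whatever their label.

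All 4 Clu probe sets had these same 3 arrays highest, as had 986 of all probe sets (2.19%), and the 4 correlated with one another at 0.68 to 0.96 over the 8 arrays. This order was noticed in the data, so it carries no test. By the labels, 1454849_x_at differed from wt/wt by 0.20 in ko/ko (SE 0.15, unadjusted p = 0.241, limma) and 0.082 in ko/wt (SE 0.17). Without the 2 arrays against their label the differences were 0.34 and -0.12.

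The probe set 1418626_a_at of Clu read 11.76, 11.47 and 11.61 in ko/ko and 11.37 and 11.79 in ko/wt, against 11.30, 11.44 and 11.34 in wt/wt. All 3 ko/ko arrays lay above all 3 wild-type arrays. The difference between ko/ko and wt/wt was 0.26 (SE 0.13, unadjusted p = 0.0868, limma), and 0.33 without the 2 arrays against their label.

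Markers of other cell types moved in part with Clu. The mean of 11 microglia markers was 6.33, 6.004 and 6.13 in ko/ko and 5.90 and 6.26 in ko/wt, against 6.11, 5.94 and 5.84 in wt/wt, and that of 8 bipolar cell markers was 9.62, 9.33 and 9.41 in ko/ko and 9.36 and 9.42 in ko/wt, against 9.34, 9.31 and 9.30 in wt/wt. Both had the same 3 arrays highest as Clu, as had the mean of the 14 genes of glutamate uptake and recycling. The mean of 9 lens markers was 8.67, 5.57 and 7.59 in ko/ko and 5.79 and 7.78 in ko/wt, against 7.67, 6.32 and 5.69 in wt/wt, and 8 of the 9 had a higher mean in ko/ko than in wt/wt (median 0.95). The lens median without the 2 arrays against their label was 1.60 in ko/ko, and in ko/wt it was -0.63, where it was 0.16 with all arrays. On wt/wt 1 the lens mean of 7.67 was above the 7.59 of ko/ko 3, while Clu (1454849_x_at) read 12.43 on wt/wt 1 and 12.62 on ko/ko 3. Single lens markers differed in this. Cryaa, Cryab and Crybb2 had the same 3 arrays highest as Clu, while Bfsp1, Bfsp2 and Lim2 did not. Cryaa read 11.72 on ko/ko 1, 10.44 on ko/wt 2 and 10.27 on ko/ko 3, against 9.34 on wt/wt 1. Gfap, the intermediate filament that Müller cells make in gliosis, read 7.27, 6.57 and 7.17 in ko/ko and 6.28 and 7.15 in ko/wt, against 6.84, 6.37 and 6.54 in wt/wt. Its difference between ko/ko and wt/wt was 0.42 (SE 0.26, unadjusted p = 0.148, limma), and 0.64 without the 2 arrays. Gfap was picked after its values were seen. The part of these markers in the Clu values was not tested.

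The genes most like Clu over the 8 arrays were Cul4a (r = 0.98), Zfp469 (0.98) and Ntan1 (0.98). Cul4a and Zfp469 lie on chromosome 8, as does Nxnl1, while Ntan1 lies on chromosome 16 and Clu on chromosome 14. Gpat4 and Cnot7, the genes most like Apoe and Aqp4, lie on chromosome 8 too. The genes most like Prss56, Glul, Slc1a3, Kcnj10, Car14, Dkk3 and Sox9 lie on other chromosomes. The share of chromosome 8 among all ranked genes was not taken, so these places are a description and were not tested. Cul4a read 9.32, 8.89 and 9.20 in ko/ko and 8.91 and 9.21 in ko/wt, against 9.00, 9.00 and 9.02 in wt/wt. It shares with Clu the 3 highest arrays.

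Apoe encodes apolipoprotein E, the main carrier of lipid between cells in the retina and brain. Its probe set (1432466_a_at, chromosome 7) read 11.69, 11.85 and 11.66 in ko/ko and 11.98 and 11.83 in ko/wt, against 11.43, 11.83 and 11.95 in wt/wt. The wild-type arrays held the lowest value and nearly the highest, and the differences from wt/wt were -0.0037 (SE 0.14) in ko/ko and 0.17 (SE 0.16) in ko/wt. Of 14 measured apolipoproteins and their receptors 0 passed the adjusted threshold in either comparison with wt/wt, and 4 had a higher mean in ko/ko (median -0.031) and 4 in ko/wt (median -0.043). Abca1, which loads lipid onto apolipoproteins, differed by -0.21 between ko/ko and wt/wt (SE 0.11, unadjusted p = 0.0991, limma).

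Sox9 and Dkk3, a regulator and a secreted product of Müller cells, differed from wild type by at most 0.25 in the brightest probe set. Sox9 encodes a transcription factor needed to form Müller glia in mice. Its brightest probe set (1451538_at, chromosome 11) read 6.97, 6.48 and 6.97 in ko/ko and 6.67 and 6.77 in ko/wt, against 7.03, 6.98 and 6.90 in wt/wt. The lowest array was ko/ko 2, and both ko/wt arrays were below the wild type. The differences from wt/wt were -0.16 in ko/ko (SE 0.14, unadjusted p = 0.278, limma) and -0.25 in ko/wt (SE 0.16, unadjusted p = 0.153), and without the 2 arrays against their label they were -0.00076 and -0.30.

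A second Sox9 probe set (1424950_at) read 6.91, 6.59 and 6.88 in ko/ko and 6.67 and 6.64 in ko/wt, against 6.89, 6.79 and 6.64 in wt/wt. Here wt/wt 3 was as low as the ko/wt arrays. The third (1433889_at) stayed between 3.73 and 3.92, well below the median probe set level.

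Dkk3 encodes a divergent member of the Dickkopf family of secreted proteins. Its brighter probe set (1448669_at, chromosome 7) read 11.45, 11.25 and 11.41 in ko/ko and 11.45 and 11.32 in ko/wt, against 11.23, 11.29 and 11.31 in wt/wt. Both ko/wt arrays were above all wild-type arrays, narrowly at the nearest pair, and ko/ko overlapped wild type. The differences from wt/wt were 0.095 (SE 0.093) in ko/ko and 0.11 (SE 0.10) in ko/wt. Its second probe set (1417312_at) read 10.68, 11.05 and 10.82 in ko/ko and 11.19 and 11.17 in ko/wt, against 10.29, 10.93 and 11.44 in wt/wt, and correlated with the first at 0.16.

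Of 15 measured genes of the Dickkopf family and the Wnt signal, 0 passed the adjusted threshold in either comparison with wt/wt. The mean in ko/ko was higher than in wt/wt for 8 of the 15 and lower for 7 (median 0.066). In ko/wt it was also higher for 8 and lower for 7 (median 0.0031). Lef1, a transcription factor of the Wnt pathway, read 5.67, 5.64 and 5.64 in ko/ko and 5.75 and 5.42 in ko/wt, against 5.46, 5.36 and 5.25 in wt/wt. All ko/ko arrays lay above the wild type, with a difference of 0.29 (SE 0.11, unadjusted p = 0.0279, limma). These groups did not overlap, in either direction, in 4.47% of all probe sets. Lef1 was also below the median probe set level of 6.19. Axin2, a feedback target of Wnt, differed by 0.27 between ko/ko and wt/wt (SE 0.12, unadjusted p = 0.0590, limma). Of 20 Sox, Notch and related regulators of glia 0 passed the adjusted threshold, and the Notch target Hes5 read 7.40, 7.31 and 7.11 in ko/ko and 7.26 and 6.83 in ko/wt, against 7.70, 7.43 and 7.27 in wt/wt. Its ko/wt minus wt/wt difference was -0.42 (SE 0.18, unadjusted p = 0.0443, limma), and -0.20 without the 2 arrays.

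Across the 24 probe sets of the 10 genes, limma called 0 in ko/ko against wt/wt at an adjusted p under 0.05, as it did 0 (0%) of all 45037. At an unadjusted p under 0.05 the members numbered 0 of 24, and all probe sets 411 (0.913%). The groups did not overlap in 1 of the 24, Clu 1418626_a_at, against 4.47% of all probe sets. The members' shares were near those of all probe sets. Without the 2 arrays against their label, 0 of 24 passed the adjusted threshold and 4 had an unadjusted p under 0.05, against 2.01% of all probe sets. These 4 were the probe sets of Clu, which measure 1 gene. The ko/ko arrays that remain are among those noticed above to be highest in Clu, so this count carries no test.

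In ko/wt against wt/wt the adjusted count was 0 of 24, and 0 (0%) of all. The unadjusted count was 1, Prss56, and 516 (1.15%) of all. In 4 of the 24 the groups did not overlap, with Dkk3 higher and Prss56, Aqp4 and Sox9 lower, against 14.2% of all probe sets. In ko/ko against ko/wt the adjusted count was 0 of 24 and 0 (0%) of all, the unadjusted count was 1, Prss56, against 405 (0.899%) of all, and the groups did not overlap in 3 of the 24, against 12.4% of all. These 3 were Prss56, which was higher, and 1 probe set each of Slc1a3 and Dkk3, which were lower. Prss56 was known beforehand to lead the ko/wt comparison, so its place in the counts of both comparisons is a description and carries no test. Without the 2 arrays against their label ko/wt is 1 array, so no unadjusted member counts are given for these comparisons.

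Without the 2 arrays against their label, the ko/ko minus wt/wt differences not yet given were -0.089 for Glul, -0.14 for Aqp4, 0.064 for Kcnj10, -0.062 for Apoe, 0.060 for Car14 and 0.15 for Dkk3 in the brightest probe sets. In ko/wt minus wt/wt they were -0.020 for Glul, -0.32 for Slc1a3, -0.32 for Aqp4, -0.12 for Kcnj10, 0.24 for Apoe, -0.083 for Car14 and 0.17 for Dkk3. The sign differed from that with all arrays for Glul and Car14 in ko/wt, and 0 of these passed the adjusted threshold. Among the genes that are no members, Aqp1 was at 0.48, Dmd at -0.21, Abca1 at -0.28, Lef1 at 0.30, Axin2 at 0.38 and Rdh10 at -0.27 in ko/ko, and Dtna at 0.36 and Car11 at 0.44 in ko/wt.

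**Figure D3:**
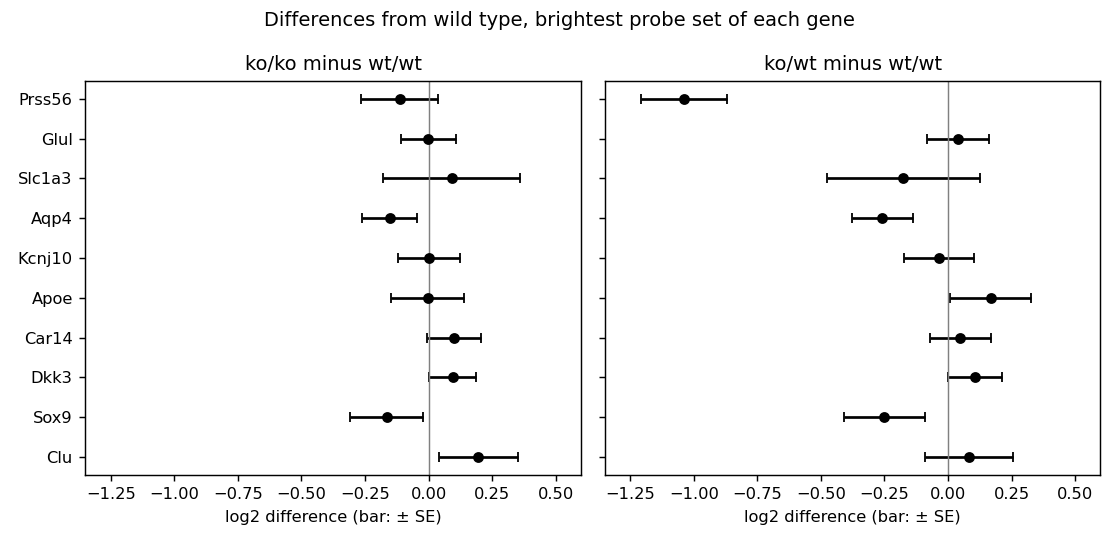
Log2 difference from wt/wt (horizontal axes) of the brightest probe set of each gene for ko/ko, left, and ko/wt, right, with bars of 1 standard error from limma to either side. Prss56 in ko/wt stands at -1.04, and all other points lie between -0.26 and 0.20.

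Of the 25 further Müller glia markers, such as Rlbp1 and Vim, 0 passed the adjusted threshold. Their mean was higher in ko/ko than in wt/wt for 15 of 25 (median 0.024) and higher in ko/wt for 12 of 25 (median -0.037). Rdh10, a retinol dehydrogenase of Müller cells, differed by -0.20 between ko/ko and wt/wt (SE 0.11, unadjusted p = 0.0983, limma). Of 8 astrocyte markers, which a retina also holds, 6 had a higher mean in ko/ko (median 0.046) and 3 in ko/wt (median -0.017). Of the other cell types, 0 markers passed the adjusted threshold, and a higher mean in ko/ko than in wt/wt was found for 10 of 11 microglia markers (median 0.14), 10 of 11 vessel markers (median 0.19), 7 of 8 ciliary body and iris markers (median 0.077), 6 of 8 rod markers (median 0.018), 7 of 8 bipolar cell markers (median 0.083) and 8 of 13 inner retinal neuron markers (median 0.014). The ko/ko medians without the 2 arrays against their label were 0.29 for microglia, 0.18 for vessels, 0.11 for bipolar cells, 0.16 for inner retinal neurons, 0.050 for the further Müller glia markers and 0.053 for the eye size genes, whose sign then differed. In ko/wt the median sign then differed for the glutamate genes (-0.0069), the carbonic anhydrases (-0.060), the Dickkopf and Wnt genes (-0.021), microglia (-0.070), rods (-0.035) and inner retinal neurons (-0.055).

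Several of the 24 probe sets correlated over the arrays with the actin 5′ minus 3′ difference. Exact two-sided permutation tests of Pearson's r over the 8 arrays, adjusted by Benjamini-Hochberg over 24 relations, gave 6 under 0.05, of which 5 were positive and 1 negative. By Spearman's rho 6 also passed, 4 of them in common. The absolute correlation was 0.8 or more for 7 of the 24, against 15.6% of all probe sets. The permutation tests were not run over all probe sets, so the count of 6 has no like share beside it. Some genes also enter the 24 with several probe sets.

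For Glul 1426235_a_at, r was 0.94 and Spearman's rho 1 (exact permutation p = 7.44e-05 and 4.96e-05, adjusted 0.00119 and 0.00119), and r was 0.96 without wt/wt 1 and ko/ko 1, the 2 arrays farthest from the median. For Sox9 1424950_at, r was -0.92 and rho -0.98 (adjusted exact permutation p = 0.00119 and 0.00476), and r was -0.98 without those arrays. For Aqp4 1425382_a_at, r was 0.91 and rho 0.90 (adjusted exact permutation p = 0.0147 and 0.0365), and r was 0.71 without them. For Dkk3 1417312_at, r was 0.89 and rho 0.79 (adjusted exact permutation p = 0.0139 and 0.0670, so not past the threshold by rank), and r was 0.67 without them. For Glul 1426236_a_at, r was 0.81 and rho 0.86 (adjusted exact permutation p = 0.0350 and 0.0429), and r was 0.65 without them. Apoe 1432466_a_at passed by r alone, with r of 0.84 and rho of 0.69 (adjusted exact permutation p = 0.0350 and 0.139), and r was 0.61 without them. Aqp4 1447745_at and Sox9 1451538_at passed by rank alone, with rho of 0.88 and -0.86 (adjusted exact permutation p = 0.0429 for each) and r of 0.69 and -0.70 (adjusted 0.0993 for each).

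For Prss56, r with the actin difference was -0.67 and rho -0.74 (exact permutation p = 0.0607 and 0.0458, adjusted 0.112 and 0.100), and r was -0.53 without those 2 arrays. With the actin difference as a covariate its ko/wt minus wt/wt difference was -0.89. Prss56 read 6.38 on ko/ko 2, whose actin difference of -0.69 was beside the -0.71 of ko/wt 2, where Prss56 read 5.73. On both of these arrays Nxnl1 went against the label. Within a group there are too few arrays to give the relations with the actin difference. The part of RNA degradation in the Prss56 difference between genotypes was not tested.

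**Figure D4:**
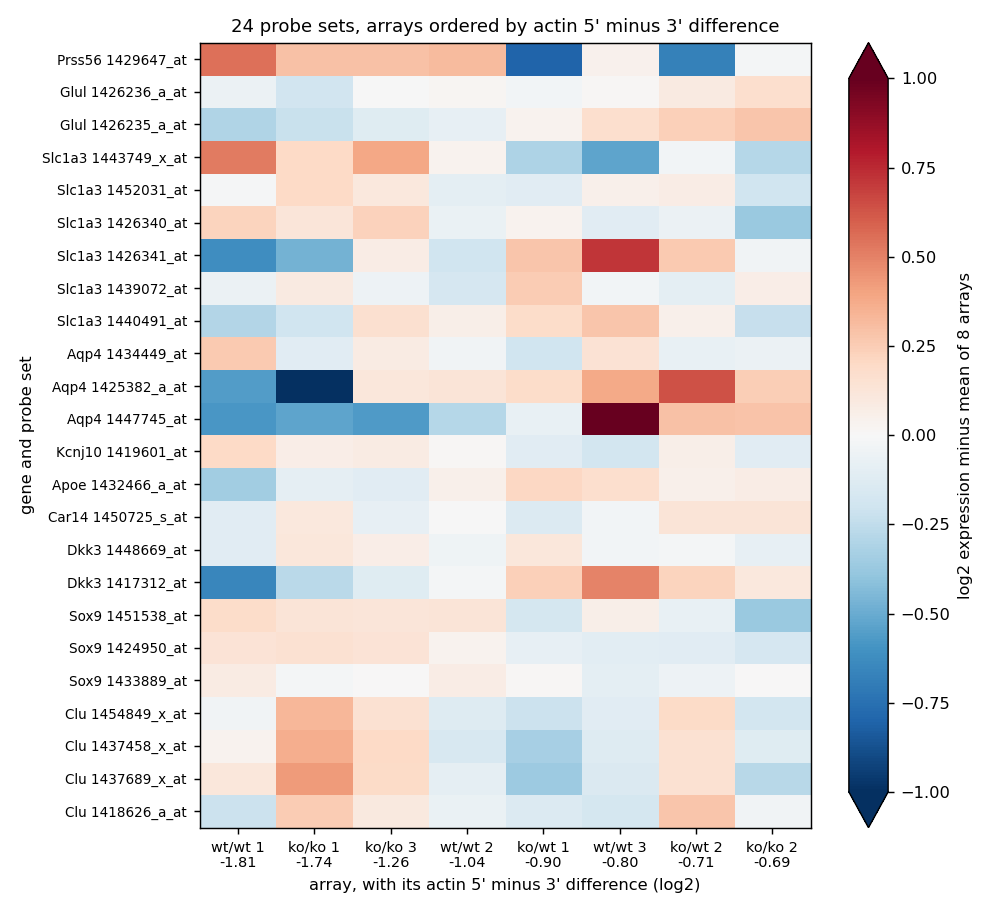
Log2 expression minus the mean of the 8 arrays (colour) for the 24 probe sets (rows), with arrays in columns from the lowest to the highest actin 5′ minus 3′ difference, printed below each. Probe sets such as Glul 1426235_a_at shift from blue to red along this order, Sox9 1424950_at the other way, while Prss56 is low on the ko/wt arrays and Clu high on ko/ko 1, ko/ko 3 and ko/wt 2.

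Kcnj10 and Slc1a3, whose promoters are given above, correlated at 0.97 over the 8 arrays in their brightest probe sets, and both had ko/ko 1, ko/ko 3 and wt/wt 1 highest, as had 7.95% of all probe sets. These are the 3 arrays with the lowest actin difference. Slc1a3 and Apoe correlated at -0.92. The relation with Kcnj10 depended on the Slc1a3 probe set. The other Slc1a3 probe sets correlated with Kcnj10 at -0.76 (1426341_at) to 0.71 (1426340_at). For 1452031_at, whose mean of 9.15 was close to the 9.16 of the brightest, the correlation was 0.41. The genes most like the other members were Cep68 for Kcnj10 (0.99), Prkar2a for Slc1a3 (0.99), Gpat4 for Apoe (0.98), Kbtbd4 for Glul (0.98), Aatk for Dkk3 (0.99), Cnot7 for Aqp4 (0.97), Zbtb6 for Sox9 (0.96) and Gsg1 for Car14 (0.96), each over 8 arrays and with no test.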

How the data were processed

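The authors deposited a table of log2 expression made with RMA, per the submitters' processing notes. Its version and whether it included the ninth sample of the 9 in the design text were not found in the labels. RMA equalises the distributions of the arrays, so each difference is relative to the bulk of transcripts. Values ran from 2.50 to 14.57, array medians from 6.11 to 6.21, and correlations between arrays from 0.979 to 0.996. Precision is limited by how few arrays there are, and detection calls were not used.

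Of 45101 probe sets, 64 controls were left out. The platform annotation gave 1 symbol for 34945 of the rest, several for 932 and none for 9160. A gene was represented by its brightest probe set. Means of 3 genotypes were fitted to all 8 arrays with limma 3.58.1 in R 4.3.3 (eBayes, two-sided, 5 residual degrees of freedom, Benjamini-Hochberg over 45037 probe sets, threshold 0.05). The fit was tested on simulated data.

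The members and the 17 gene lists were chosen with earlier results of these data known. All member probe sets were counted whatever their values, and all are shown in the colour plot of arrays ordered by actin difference. In the text, array values are printed only for some of them, and some Clu probe sets are not named singly. From each list up to 4 genes of smallest unadjusted p could be named, and the text names only some of these. For likeness the 5 genes of highest r were taken for Prss56 and the 3 highest for each other member, among genes at or above the median level, and for most members only the first is printed. Alternatives were other scaling, a filter on dim probe sets, an intensity trend, 2 groups only, the replicate block, each array left out and the mean of a gene's probe sets. Fits without the 2 arrays against their label, with actin as a covariate, and without wt/wt 1 and ko/ko 1 were added after the data had been seen.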

Additional observations from a re-analysis of the deposited data

How the results depend on the processing

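The count of probe sets past the adjusted threshold was 0 in each comparison under each alternative, except that leaving out 1 array at a time gave 0 to 1 in ko/ko and in ko/wt against wt/wt, with the 1 arising without wt/wt 3. The count at an unadjusted p under 0.05 was less stable. Without dim probe sets it was 67 in ko/ko and 110 in ko/wt against wt/wt and 49 in ko/ko against ko/wt, among fewer probe sets. Without ko/ko 2 it was 1314 in ko/ko against wt/wt and 1228 in ko/ko against ko/wt, without wt/wt 1 it was 725 in ko/ko against wt/wt, and without wt/wt 3 it was 1421 in ko/wt against wt/wt. Without both arrays against their label the 3 counts were 903, 629 and 1190, and with actin as a covariate 971, 1584 and 645. Without wt/wt 1 and ko/ko 1 it was 667 in ko/ko against wt/wt.

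The replicate numbers were not taken to pair the arrays, because the deviations of same-numbered ko/ko and wt/wt arrays correlated at 0.62, 0.23 and -0.03. With the replicate block the adjusted count was 0 in each comparison, the unadjusted counts were 336, 829 and 1028, and the ko/wt minus wt/wt difference of Prss56 was -1.08.

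Over all 72 differences of the 24 probe sets in 3 comparisons, 0 of 1023 alternative values passed the adjusted threshold and 129 had the other sign, in 47 of the differences. After this was seen, detailed values were kept for the 32 differences printed in the report, of which 21 kept their direction and 11 did not, with 38 of 486 values reversed. The Prss56 differences kept theirs, at -1.17 to -0.89 for ko/wt minus wt/wt and 0.77 to 1.09 for ko/ko minus ko/wt, except that ko/ko minus wt/wt was 0.0098 without wt/wt 1.

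Of the reversals in ko/ko minus wt/wt, Glul 1426236_a_at was 0.0043 after repeated quantile normalization, 0.010 with equal array medians, 0.0021 with actin as a covariate, 0.066 without wt/wt 1 and ko/ko 1, and 0.024 for the mean of its probe sets. Kcnj10 was -0.0024 after repeated quantile normalization and -0.0017 with actin, and Apoe was 0.0076 with equal array medians and 0.0010 with actin. With 1 array left out, the ranges were -0.25 to 0.0098 for Prss56, -0.089 to 0.089 for Glul, -0.18 to 0.35 for Slc1a3, -0.096 to 0.096 for Kcnj10 and -0.16 to 0.10 for Apoe. In ko/wt minus wt/wt, the values without both arrays against their label were -0.020 for Glul, -0.083 for Car14 and -0.12 for Clu 1454849_x_at. With actin they were -0.049 for Glul, 0.10 for Slc1a3 and 0.063 for Kcnj10, and without wt/wt 1 and ko/ko 1 0.080 for Slc1a3 and 0.058 for Kcnj10. The mean of a gene's probe sets gave 0.061 for Slc1a3 and 0.029 for Aqp4. With 1 array left out, the ranges in ko/wt minus wt/wt were -0.020 to 0.096 for Glul, -0.44 to 0.080 for Slc1a3, -0.13 to 0.058 for Kcnj10, -0.083 to 0.18 for Car14 and -0.12 to 0.28 for Clu 1454849_x_at.
Of 54 list medians, 47 of 774 alternative values moved by more than the spread of the list's genes. The cause of these changes was not tested.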
